A study of Homo sapiens with 2 samples.

Results

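The glucocorticoid receptor, encoded by NR3C1, and 9 genes that it is known to induce were followed in SF-539 cells, a human glioblastoma (GBM) line, with and without knockdown of FKBP9. The genes were FKBP5, PER1, TSC22D3, SGK1, KLF9, DUSP1, ZBTB16, CEBPD and ERRFI1. All 10 were found by gene name among the 58735 genes of the deposited table. They were chosen by the measured values of FKBP5 and PER1, both of which were lower in the knockdown library, so every difference given here for them is a description and was not tested. The question was whether other targets of the receptor followed FKBP5 and PER1.

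SF-539 cells were transduced with a lentivirus carrying either a non-targeting hairpin (shControl) or a hairpin against FKBP9 (shFKBP9), and stably transduced cells were selected with puromycin in both arms. Both lines were grown in DMEM with fetal bovine serum. The labels name no glucocorticoid treatment, and they do not say which of the study's hairpins was sequenced or how many clones each line held. There was 1 library per condition, so an effect of the hairpin and a difference between cultures or libraries cannot be told apart. The libraries hold no replicates for a test between the conditions, and none was made here.

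The cortisol receptor waits in the cytosol in a complex with HSP90 and its co-chaperones. When hormone binds, the immunophilin FKBP5 on this complex is exchanged for FKBP4, and the receptor moves to the nucleus. There it binds as a dimer to an inverted repeat of hexamers and switches on genes such as FKBP5, which closes a negative feedback loop, TSC22D3 and PER1. It also restrains inflammatory genes, mostly without contacting such a repeat. In glioma care the pathway matters because the synthetic glucocorticoid dexamethasone is widely given against brain oedema.

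The sequence that the receptor recognizes was looked for first, since it does not depend on the measured values. The full repeat, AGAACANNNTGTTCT, reads the same on both strands. Its core, GNACANNNTGTNC, also reads the same on both strands and matches wherever the full repeat does. Within 10 kb of the canonical start site (GENCODE release 44, hg38) the core was found in 4 of the 10 genes, PER1, FKBP5, TSC22D3 and KLF9, against 22.0% of 10329 expressed protein-coding genes. Within 5 kb it was found in 2 of them, PER1 and FKBP5, against 11.6%. The full repeat was absent from these windows of all 10 genes, as it was from those of all but 39 of the 10329 genes. Across gene bodies and 10 kb beyond each end, 1 of the 10 genes, FKBP5, held a full repeat, in intron 5, against 1.45% of the 10329 genes. The sites are shown because they are the sequences through which the receptor could act on these genes. They are read 5′ to 3′ on the strand of the gene, with 5 flanking bases on each side, and capitals mark the full repeat in the first line and the core in the others.

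FKBP5, intron 5, chr6:35602082-35602096, minus strand, full repeat: cattcAGAACAGGGTGTTCTgtgct
FKBP5, intron 1, chr6:35687758-35687770, minus strand, core: gttcaGGACAGTGTGTTCagcgt
PER1, upstream, chr17:8154461-8154473, minus strand, core: caagaGAACATGATGTTCccaag
TSC22D3, intron 1, chrX:107767845-107767857, minus strand, core: gcccaGAACATACTGTGCtgtcc
KLF9, upstream, chr9:70420126-70420138, minus strand, core: aaaaaGGACAAACTGTTCcacaa

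Relative to the canonical start, the PER1 site lay at -2063 bases, inside the longest annotated span of the gene, and the KLF9 site at -5475 bases. The FKBP5 core site lay 1151 bases and the TSC22D3 site 7936 bases downstream of the start, and the full repeat of FKBP5 lay 86826 bases downstream. PER1 and FKBP5, which chose the group, were the 2 genes with a core site nearest to the canonical start. KLF9, also with a site, was on the other side of 0, as given below. Over gene bodies with the same margins the core was in 6 of the 10 genes, against 50.7% of the 10329 genes, and its density was 27.5 sites per megabase in the 10 genes and 13.0 in the 10329. It occurred 7 times each in SGK1 and ZBTB16, which lacked it near the canonical start, 5 times in FKBP5, 4 times in TSC22D3 and 1 time each in KLF9 and PER1. Windows of 10 kb were laid around the canonical start only. Further starts, such as those that RefSeq lists for SGK1 and TSC22D3, were not searched at that width. A match of letters is not a measurement of binding.

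Start regions from RefSeq (GRCh38.p14), from 250 bases before to 50 after each start, matched 8 of the 10 genes with 20 windows, some of which overlap. CEBPD and ZBTB16 had no window. The core motif was in 0 of the 20 windows, against 0.390% of 35116 windows of all genes. The E-box CACGTG, the element bound by the clock factors CLOCK and BMAL1 and by MYC, was in 3 of the 20 windows, 1 each of PER1, FKBP5 and DUSP1, against 7.26% of all windows. The cAMP response element TGACGTCA, bound by CREB, was in 1 of the 20, that of DUSP1, against 1.85% of all windows. Its shorter form TGACG, which the longer contains, was in 7 of the 20, which belonged to DUSP1, NR3C1 and TSC22D3, against 24.6% of all windows. The single receptor hexamer TGTTCT was in 2 of the 20, 1 each of FKBP5 and SGK1, against 14.8% of all windows. All motifs were sought on both strands. The 3 promoters with an E-box are shown because PER1 and FKBP5 were lower in shFKBP9 and DUSP1 was not. Each line covers 200 bases that end 50 bases before the start, and capitals mark CACGTG and TGACG on either strand, and the 3 bases after TGACG in the full cAMP element.

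PER1, chr17:8152455-8152654, minus strand: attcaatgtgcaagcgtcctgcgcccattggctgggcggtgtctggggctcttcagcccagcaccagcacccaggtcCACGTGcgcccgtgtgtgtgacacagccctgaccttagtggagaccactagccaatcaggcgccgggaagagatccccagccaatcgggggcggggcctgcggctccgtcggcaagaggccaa
FKBP5, chr6:35688966-35689165, minus strand: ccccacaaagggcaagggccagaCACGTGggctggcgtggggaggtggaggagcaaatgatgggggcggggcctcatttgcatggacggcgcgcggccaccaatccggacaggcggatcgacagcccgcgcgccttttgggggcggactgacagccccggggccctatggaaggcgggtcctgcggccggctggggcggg
DUSP1, chr5:172771246-172771445, minus strand: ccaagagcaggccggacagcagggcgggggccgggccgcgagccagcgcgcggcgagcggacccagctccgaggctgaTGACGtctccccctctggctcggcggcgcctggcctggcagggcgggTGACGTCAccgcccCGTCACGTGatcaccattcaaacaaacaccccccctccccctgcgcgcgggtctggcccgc

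Expression was read as FPKM, fragments per kilobase of gene scaled to the size of the library, which allows levels to be compared between genes. The fragments behind each value could be recovered, and 18116873 lay on genes in shControl and 17158514 in shFKBP9. FKBP9, the gene targeted by the hairpin, measured 49.8 FPKM with the control hairpin and 4.68 FPKM with its own (log2 ratio -3.38), in the direction of the labels. Of the fixed marker genes, the mesenchymal ones dominated, with a summed FPKM of 1916 in shControl and 2037 in shFKBP9, whereas the epithelial markers summed to 1.77 and 1.57 and the glial markers to 3.43 and 3.22. EPCAM stood at 0.241 and 0.324 FPKM and CDH1 at 0 and 1 fragments, so the cells, labelled epithelial glioma, carried few epithelial or glial marker transcripts. The 5 leukocyte markers summed to 0.734 and 1.03 FPKM, with PTPRC and CD3E at 0 in both libraries. In bulk RNA, fewer cells with a transcript and less of it per cell cannot be told apart.

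Positions are those of the deposited table on hg38, and all genes but ZBTB16 lie on the minus strand. NR3C1 (ENSG00000113580, chr5:143277931-143435512), the receptor, was present at 11.1 FPKM in shControl, from 1845 fragments, and at 12.2 FPKM in shFKBP9, from 1915 fragments. The shFKBP9 value was 109% of the other. The log2 ratio of shFKBP9 to shControl, computed from FPKM with 0.1 added to both, was 0.13. Its 95% interval was 0.04 to 0.23. This interval, here and below, is the exact Clopper-Pearson interval of the fragments without the addition. It covers counting error only and says nothing of the spread between cultures. The receptor transcript was therefore not lower in the library in which FKBP5 and PER1 were lower. Related receptors that bind the same repeat were scarce. NR3C2, the mineralocorticoid receptor, had 38 and 31 fragments, and the progesterone receptor PGR 0 and 0.

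PER1 (ENSG00000179094, chr17:8140472-8156506), a repressor of the circadian clock, had the lowest ratio of the group. It was at 4.80 FPKM in shControl, from 608 fragments, and at 3.45 in shFKBP9, from 415, which is 72.0% of the control value. The log2 ratio was -0.46 (95% interval -0.66 to -0.29). FKBP5 (ENSG00000096060, chr6:35573585-35728583), the immunophilin that holds the receptor in its low-affinity state, was at 3.36 FPKM in shControl, from 647 fragments, and at 2.55 in shFKBP9, from 465. This was 75.8% of the control value, with a log2 ratio of -0.39 (-0.57 to -0.22). Both differences were well short of 2-fold. These are the values that chose the group.

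KLF9 and CEBPD stood on the other side. KLF9 (ENSG00000119138, chr9:70384597-70414624), a Krüppel-like repressor that glucocorticoids induce in many tissues, was at 2.61 FPKM in shControl, from 245 fragments, and at 3.35 in shFKBP9, from 298. The log2 ratio was 0.35 (0.11 to 0.61), and the shFKBP9 value was 128% of the control value. CEBPD (ENSG00000221869), a C/EBP transcription factor that both glucocorticoids and inflammatory cytokines induce, was at 14.2 FPKM in shControl, from 559 fragments, and at 17.4 in shFKBP9, from 650. Its log2 ratio was 0.29 (0.13 to 0.46). KLF9 and CEBPD were thus higher in shFKBP9, by somewhat less on the log2 scale than FKBP5 and PER1 were lower.

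The targets TSC22D3, SGK1, DUSP1 and ERRFI1 had nearly the same level in both libraries. TSC22D3 (ENSG00000157514, chrX:107713221-107777342), which encodes the glucocorticoid-induced leucine zipper GILZ, was at 8.58 FPKM in shControl and 8.47 in shFKBP9, from 740 and 693 fragments. Its log2 ratio was -0.02 (-0.17 to 0.14). SGK1 (ENSG00000118515, chr6:134169246-134318112), a kinase that raises sodium transport, was at 2.01 and 1.97 FPKM, from 363 and 338 fragments (log2 ratio -0.02, -0.24 to 0.19). The FPKM of a gene adds up all its transcripts, so a shift between start sites would not be seen.

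DUSP1 (ENSG00000120129, chr5:172768090-172771195), a phosphatase that inactivates p38 and JNK and carries part of the anti-inflammatory action of the hormone, was at 36.2 and 35.5 FPKM, from 1325 and 1231 fragments (log2 ratio -0.03, -0.14 to 0.09). ERRFI1 (ENSG00000116285, chr1:8004404-8026308), an inhibitor of the EGF receptor, was the most abundant of the group at 70.0 and 70.8 FPKM. With 5307 and 5090 fragments it was also the best measured, and its log2 ratio was 0.02 (-0.04 to 0.07).

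ZBTB16 (ENSG00000109906, chr11:114059593-114250676), a zinc finger factor that is strongly induced by glucocorticoids in several cell types, had 0 fragments in both libraries. A count of 0 allows up to 3 fragments, which would be 0.0260 FPKM in shControl and 0.0274 in shFKBP9. It gives no information on a difference.

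**Figure D1:**
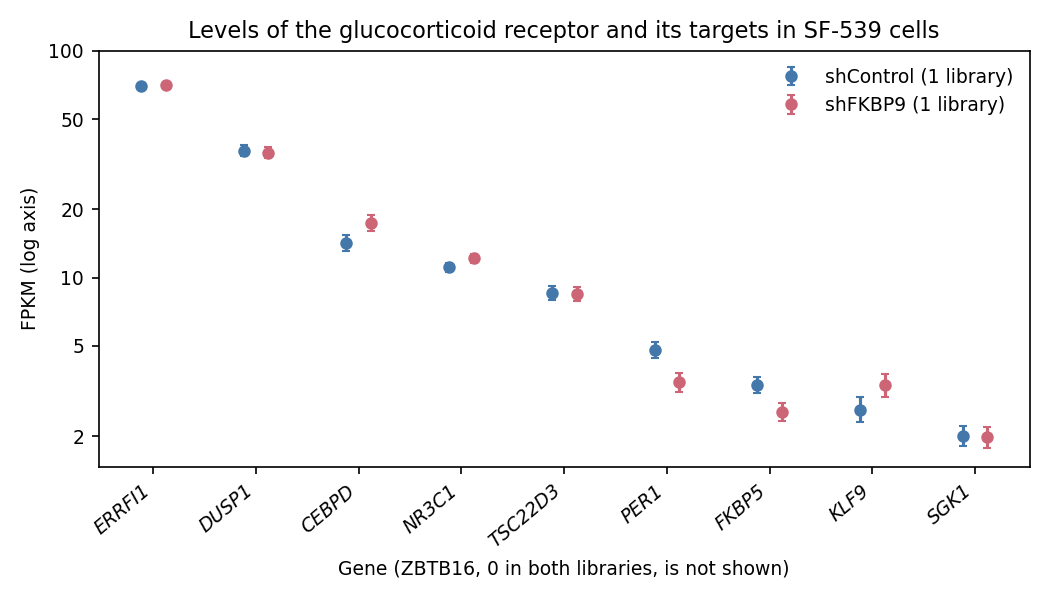
FPKM (log axis) of the 9 genes with fragments in shControl and shFKBP9 cells, 1 library each, ordered by the shControl value. Points are the deposited values and bars the exact Poisson 95% intervals of the fragments. PER1 and FKBP5 are lower and KLF9 and CEBPD higher in shFKBP9, and the bars of the 2 libraries do not overlap for these 4 genes.

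In shControl the order of levels was ERRFI1, DUSP1, CEBPD, NR3C1, TSC22D3, PER1, FKBP5, KLF9 and SGK1, and no neighbours in this order had overlapping Poisson intervals of their FPKM. In shFKBP9 the order was the same down to PER1. KLF9 (3.35 FPKM, 2.98 to 3.76) then reached the level of PER1 (3.45 FPKM, 3.13 to 3.80) and lay above FKBP5 (2.55 FPKM, 2.32 to 2.79), whereas in shControl it lay below both.

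Set against all genes, the group showed no shared direction. Of the 9 genes that reached 1 FPKM in a library, 0 were past 2-fold in either direction. Among all 12741 genes at that minimum, 2.19% were lower and 2.02% higher past 2-fold. Their median log2 ratio, -0.02 over 9 genes, was that of all 12741 genes, also -0.02. PER1 and FKBP5, picked for being low, and the receptor itself enter this median. It therefore cannot show whether the other targets followed. Those targets, where they had fragments, ran from -0.03 for DUSP1 to 0.35 for KLF9. The counting interval lay below 0 for 2 of the 9, the PER1 and FKBP5 that chose the group. It lay above 0 for 3 of the 9, KLF9, CEBPD and NR3C1, and included 0 for 4. Among the 17105 genes with at least 10 fragments, the interval lay below 0 for 16.7% and above 0 for 14.0%. Among the 8534 genes with at least 1 FPKM and at least 500 fragments, as all 9 genes had, it lay below 0 for 26.0% and above 0 for 22.3%. The 2 below 0 were fixed by the choice of the group, so their count cannot be read against these shares. The 3 above 0 include the receptor itself and stand beside the 22.3%. Of the targets that did not choose the group, KLF9 and CEBPD had intervals above 0. Those of TSC22D3, SGK1, DUSP1 and ERRFI1 included 0.

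Among deeply covered genes, the ratios of PER1, FKBP5 and KLF9 were not common. Of the 8534 genes, 0.926% had a lower ratio than PER1 and 2.33% a lower ratio than FKBP5. At the other end, 96.5% had a lower ratio than KLF9 and 94.1% a lower ratio than CEBPD. The middle 90% of the 8534 genes ran from -0.31 to 0.31. PER1, FKBP5 and KLF9 fell outside this range and the other 6 genes inside it. Among all 12741 genes at the minimum, which include less deeply covered ones, 6.10% had a lower ratio than PER1 and 8.24% than FKBP5. Of the same genes, 91.3% had a lower ratio than KLF9 and 88.6% than CEBPD. Their middle 90% ran from -0.53 to 0.51 and held all 9 genes. Since PER1 and FKBP5 were picked for being low, their place at the low end describes that choice.

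**Figure D2:**
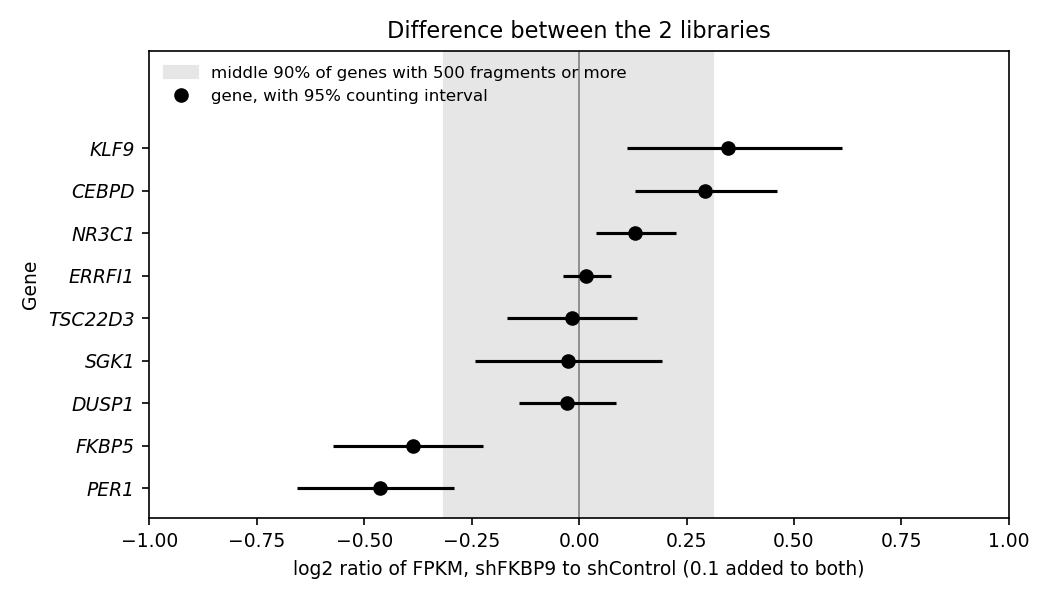
log2 ratio of FPKM in shFKBP9 to shControl for each of the 9 genes, with 0.1 added to both values. Lines are 95% counting intervals, which do not cover the spread between cultures, and the grey band holds the middle 90% of the 8534 genes with at least 500 fragments. The ratios run from -0.46 for PER1 to 0.35 for KLF9 and are centred near 0.

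**Figure D3:**
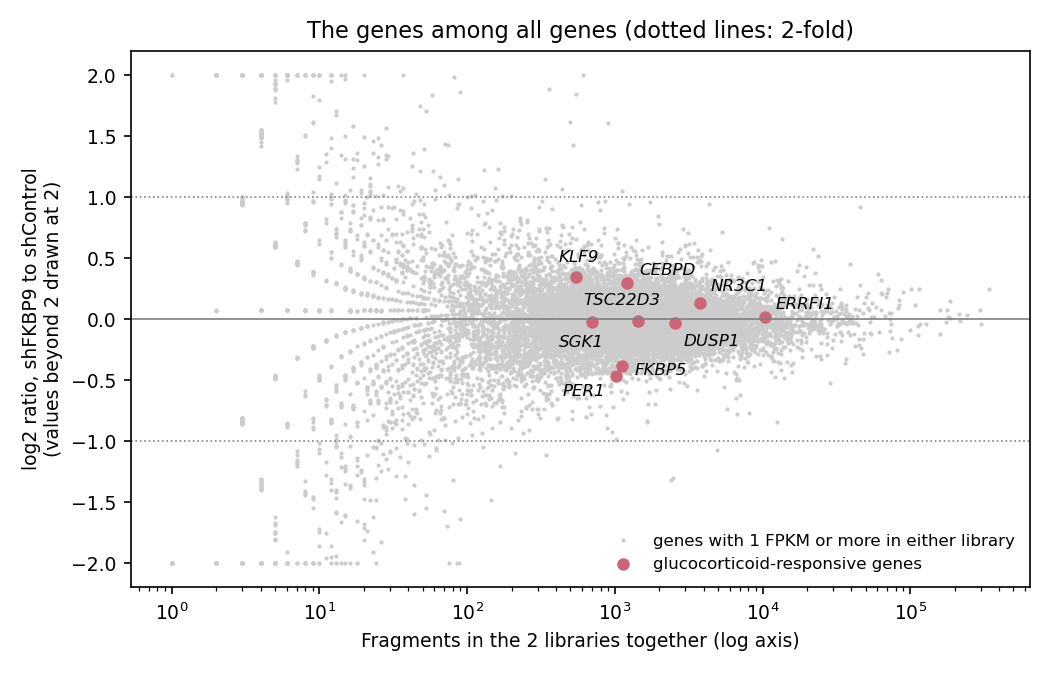
log2 ratio against the number of fragments in both libraries together (log axis) for the 12741 genes that reached 1 FPKM in a library (grey) and the 9 glucocorticoid-responsive genes (coloured). Dotted lines mark 2-fold, and ratios beyond 2 are drawn at 2. All 9 genes lie inside the 2-fold lines, where the grey cloud has narrowed to the right.

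Genes annotated on top of these loci took few fragments. The kit named in the labels is not described there as keeping strand, so reads from a gene and its antisense partner cannot be told apart. There were 16 such genes at 8 of the 10 loci, 11 of them had no fragment, and the most was 36 in both libraries together. That was an antisense gene at ERRFI1. At PER1 and FKBP5 all 5 overlapping genes were at 0 in both libraries. Among them, AC129492.3 at PER1 is protein-coding and on the same strand. The authors do not state how reads shared between genes were assigned, so these counts do not show that no read fell there.

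A wider list of 31 genes that glucocorticoids are known to induce gave the same picture. In it, 23 genes passed 1 FPKM in either library, and 0 were past 2-fold. The interval lay below 0 for 6, above 0 for 5 and included 0 for 12, and the median log2 ratio was 0.01. The 6 and 5 of 23 are near the 26.0% and 22.3% of deeply covered genes, the depth that 21 of the 23 reached. On the low side were CRISPLD2, a secreted protein that binds lipopolysaccharide, with 1.87 FPKM in shControl and 1.02 in shFKBP9 (log2 ratio -0.81, -1.17 to -0.57), and MAOA, a monoamine oxidase, with 3.30 and 2.59 FPKM (-0.34, -0.59 to -0.10). Among the low genes CEBPB, a C/EBP factor and relative of CEBPD, had a log2 ratio of -0.16 (-0.23 to -0.09). CRISPLD2 had a lower ratio than either PER1 or FKBP5.

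On the high side, the metallothionein MT2A had 1159 FPKM in shControl and 1493 in shFKBP9 (log2 ratio 0.37, 0.34 to 0.39) and MT1X 37.2 and 49.4 FPKM (0.41, 0.30 to 0.52). Metallothioneins resemble each other in sequence, so their fragments may be shared between copies. GADD45B, a stress-induced gene, had 10.3 and 14.2 FPKM (0.47, 0.28 to 0.66). NFKBIA, the inhibitor of NF-κB, was at 98.4 and 95.3 FPKM (-0.05, -0.11 to 0.02), and BCL6, a repressor, at 5.15 and 5.05 FPKM (-0.03, -0.20 to 0.15). FAM107A and KLF15, which glucocorticoids induce strongly elsewhere, had 0 fragments in both libraries. Induced targets thus lay on both sides of 0.

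The list of 19 genes that the receptor restrains was written with earlier results on some of its cytokines known, and its counts are not independent of them. Of the 12 genes that passed the minimum, the interval lay above 0 for 8 and below 0 for 1, and 2 were past 2-fold. IL6 and IL1B reached 1 FPKM only in shFKBP9, where they were higher, so the minimum itself favoured their entry. Both are among the 8, and IL6 is among the 2. A minimum in both libraries was not tried for this list. Of the 12, 6 had 500 fragments. Beside the counts stand the 22.3% above and 26.0% below 0 among genes of that depth, the 14.0% and 16.7% among those with at least 10 fragments, and the 2.02% of all genes that were higher past 2-fold. The 2 genes past 2-fold were IL6, with 15 and 67 fragments (log2 ratio 1.99, 1.41 to 3.15), and, just past, CCL2, with 58 and 114 fragments (1.01, 0.58 to 1.54). The authors also found IL6 higher by RT-qPCR in knockdown cells of SF-539 and of another GBM line. They describe IL6 as lying downstream of the IRE1α-XBP1 pathway, a branch of the response to unfolded proteins. IL1B, with 43 and 85 fragments (0.97, 0.52 to 1.63), was just short of 2-fold only because of the 0.1 added, since its FPKM in shFKBP9 was 208% of that in shControl and that of CCL2 207%. The median log2 ratio, with IL6 and IL1B included, was 0.47, beside -0.02 over all genes. PTGS2, the inducible cyclooxygenase, was at 1.95 FPKM in shControl and 2.91 in shFKBP9 (0.55, 0.30 to 0.86). IL11, a cytokine of the IL6 family, was at 10.3 and 15.1 FPKM (0.55, 0.38 to 0.72), and CXCL8, a neutrophil chemokine, at 37.5 and 52.0 FPKM (0.47, 0.38 to 0.57). PLAU, the urokinase, was at 47.4 and 65.5 FPKM (0.47, 0.39 to 0.54). MMP3, a matrix protease, was on the other side with 29.3 and 21.4 FPKM (-0.45, -0.58 to -0.31). The part of the receptor in these differences was not tested.

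The chaperones that assemble the receptor complex were all expressed. Of the 16, the interval lay below 0 for 7 and above 0 for 1, beside 26.0% and 22.3% of genes with 500 fragments, which 15 of the 16 had, and the median log2 ratio was -0.05. FKBP4, the immunophilin that replaces FKBP5 on the complex, was at 22.4 FPKM in shControl and 21.8 in shFKBP9 (log2 ratio -0.04, -0.13 to 0.05). The FPKM of FKBP4 was thus several times that of FKBP5 in both libraries. The HSP90 genes went apart, HSP90AA1 with 316 and 366 FPKM (0.21, 0.19 to 0.23) and HSP90AB1 with 751 and 674 FPKM (-0.16, -0.17 to -0.13). The co-chaperone PTGES3, known as p23, had a log2 ratio of -0.13 (-0.18 to -0.07). The lowest ratio was that of HSPA1B (-0.42, -0.54 to -0.29), which is uncertain because its reads may be shared with the near-identical copy HSPA1A.

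All 11 coregulators passed the minimum, and the interval lay below 0 for 6 and above 0 for 0 of them. The median log2 ratio was -0.19. CARM1, a methyltransferase that acts with the p160 coactivators, was at 20.3 FPKM in shControl and 15.1 in shFKBP9 (-0.42, -0.53 to -0.31). The acetyltransferase EP300 was at 10.8 and 8.79 FPKM (-0.29, -0.38 to -0.21) and its relative CREBBP at 4.35 and 3.71 FPKM (-0.22, -0.35 to -0.11). NCOA2, a p160 coactivator, had 2.99 and 3.26 FPKM (0.13, -0.04 to 0.30). The shares of 6 and 0 of 11 stand beside the 26.0% and 22.3% of deeply covered genes given above, and no test of this list was made.

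Enzymes that set the supply of active hormone were nearly silent. HSD11B1, which regenerates cortisol from cortisone, had 1 and 0 fragments, and HSD11B2, which inactivates cortisol, had 1 and 1. H6PD, which feeds HSD11B1 with its cofactor, was at 15.4 and 14.7 FPKM (log2 ratio -0.07, -0.15 to 0.01).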

How the data were processed

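RNA-Seq was available for SF-539 cells with the control or the FKBP9 hairpin, 1 library each, with 18116873 and 17158514 fragments on genes. The authors removed low quality reads, aligned paired-end reads to hg38 with HISAT2 2.0.5, counted them per gene with featureCounts 1.5.0-p3 and deposited FPKM with the gene positions and lengths; these tools are also in the submitters' processing notes. Fragments were recovered from the deposited FPKM as FPKM times gene length over the smallest step of a library, and 100% of the values above 0 came out whole (tolerance 0.01). Intervals and floors cover counting error only.

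log2 ratios were computed with 0.1 added to FPKM. Genes had to reach 1 FPKM in either library. Since 1 library stood for each condition, no count model was fitted. The comparison that the authors made with edgeR was not used. The minimum of 500 fragments for the deeper background was chosen after seeing the data. The members and lists were chosen with earlier results of these data known. The genes named are FKBP9, the members, genes of the lists, overlapping genes and, for FKBP5 and PER1, the 2 protein-coding genes with at least 50 fragments nearest in log2 ratio and mean log2 FPKM. Canonical start sites came from GENCODE release 44 on hg38, which matched all but 17 of 10346 expressed protein-coding genes. Fragment recovery, fold counts and interval coverage were tested on simulated data. scipy 1.17.1 gave the exact intervals and pandas 2.3.3 held the tables, under Python 3.11.15 with matplotlib 3.10.9 and numpy 2.4.6. Some genes of the lists are counted but not reported here by name.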

Additional observations from a re-analysis of the deposited data

How the results depend on the processing

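Adding 1 or 0.01 to FPKM in place of 0.1, scaling by the median ratio, rescaling to TPM, leaving out the minimum, requiring 1 FPKM in both libraries and a 99% interval were tried. Of 65 alternative values, 63 stayed close to the value reported, which meant inside the 95% counting interval for the log2 ratio of a gene, inside that of the middle gene for the median (-0.04 with TPM and -0.0012 with the median ratio), and within 1.5 times for a count. The exceptions were the log2 ratio of FKBP9 with 1 added to FPKM, -3.16 in place of -3.38, and the number of genes with a core receptor motif, 2 in place of 4 within 5 kb. The same genes, PER1 and FKBP5 below 0 and KLF9, CEBPD and NR3C1 above 0, had intervals clear of 0 under both scalings and at 99%. Rescaling to TPM gave -0.41 for FKBP5 and -0.49 for PER1, and scaling by the median ratio gave -0.37 and -0.45. No paired analysis was possible because there was 1 library per condition. Differences between cultures, clones or hairpins were not measured, and ratios as small as those of PER1 and FKBP5 have no replicate check.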

Other observations

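Immediate early genes and clock genes share inputs with several of the receptor's targets, since serum and cAMP also induce genes such as PER1 and DUSP1. Of 16 immediate early genes, 10 passed 1 FPKM, with the counting interval below 0 for 2 and above 0 for 3 and a median log2 ratio of -0.04. Among the 8534 genes with at least 500 fragments the interval lay below 0 for 26.0% and above 0 for 22.3%, but only 6 of the 10 reached that depth. Among genes with at least 10 fragments the shares were 16.7% and 14.0%. EGR1, a zinc finger factor induced by growth factors, was at 11.8 FPKM in shControl and 8.95 in shFKBP9 (log2 ratio -0.40, -0.57 to -0.23), and FOS at 1.13 and 0.720 FPKM, from 66 and 40 fragments (-0.58, -1.25 to -0.06). EGR1 and FOS are the 2 below 0, and FOS reached 1 FPKM only in shControl, where it was higher. ATF3, a stress-induced factor, was at 2.87 and 3.75 FPKM (0.37, 0.12 to 0.66).

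Of 16 further clock genes, 14 passed the minimum, with the interval below 0 for 3, above 0 for 3 and a median of 0.04. All 14 had at least 500 fragments, and the counts are near the 26.0% and 22.3%. PER3, a paralog of PER1, was at 3.79 FPKM in shControl and 3.11 in shFKBP9 (log2 ratio -0.28, -0.47 to -0.10), and CRY2, a repressor that works with the PER proteins, at 3.77 and 3.05 FPKM (-0.29, -0.51 to -0.09). PER2, the paralog that also responds to glucocorticoids, was at 3.90 and 3.83 FPKM (-0.03, -0.21 to 0.16). CIART, a clock repressor, was at 4.71 and 5.88 FPKM (0.31, 0.06 to 0.58). Among 17 close paralogs of the receptor and its targets, which include FKBP4, CEBPB, PER2 and PER3, 12 passed the minimum, with the interval below 0 for 6 and above 0 for 1, beside the same 26.0% and 22.3%, at a depth that 11 of the 12 reached. TSC22D1, a paralog of TSC22D3, was at 16.2 and 12.9 FPKM (-0.33, -0.41 to -0.24).

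Among 10305 other protein-coding genes, those nearest to FKBP5 in log2 ratio and level were KY, with 348 and 253 fragments, and PKN3, with 209 and 149. Those nearest to PER1 were TRIM68, with 373 and 253 fragments, and MRM1, with 160 and 109. With 2 libraries, such nearness rests on 1 ratio and 1 level.

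Among expressed protein-coding genes, those with a core receptor motif within 10 kb of the start had a median log2 ratio of -0.03 (2277 genes), and those without it one of -0.01. The 39 genes with a full repeat in that window had a median of 0.02.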
